A study of Enchytraeus albidus with 21 samples.

Results

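Whole-body transcript levels of worms kept for 2 days in acetone-spiked soil were set against those of worms kept for 2 days in water control soil. The comparison was made by sample title: 3 arrays of acetone-exposed worms and 3 arrays of water controls, 6 of the 21 arrays in the series, all from experiment 1. The animals were adult Enchytraeus albidus with a developed clitellum, the gland band of sexually mature worms. Each array held RNA from 1 replicate of 10 worms, so a value is the average of a pool and shows nothing of the spread between worms. Vessels held 25 g of moist soil at 20 °C under a 16:8 h photoperiod, and the replicates are biological, per the labels. The labels give neither the amount of acetone nor the time between spiking and adding the worms, and no strain. Experiment 1 also held 3 arrays of worms taken from culture at day 0, which entered the fit to help estimate the spread. Experiment 2 held 4 arrays each of worms after 2, 4 and 8 days in control soil, used here for their levels.

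Enchytraeids, or potworms, are small segmented worms that feed on decaying matter and microbes and take up solutes through gut and skin, which makes them common test animals for chemicals in soil. Acetone is a volatile solvent used to bring poorly soluble chemicals into test soil, and a solvent control is run beside the water control because the carrier may act on the animals itself. In mammals, acetone is oxidised by enzymes of the cytochrome P450 family and can raise the level of some of them. No table used here names the gene behind a probe, so none of the probes below can be tied to these or other enzymes, tissue markers could not be checked, and probes are given by their identifiers. "Contig" names a sequence assembled from overlapping reads, and SP6 and T7 are the promoters on either side of a cloned insert from which a read was taken. The array held 1035 worm probes. A level is the log2 signal of a probe minus the 75th percentile of its own array, where 0 marks that percentile, and a difference is acetone minus water control on that scale. A probe was called when its adjusted p was under 0.05 (limma, Benjamini-Hochberg adjustment over 883 probes tested).

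The acetone and control arrays were of like brightness, with signals at the 75th percentile of 1722 to 3720 with acetone and 2130 to 2580 in the controls. The acetone arrays had 847 to 881 probes well above background and the controls 886 to 910. Of the culture arrays in the fit, replicate 3 had 599 such probes, against 869 and 974 for replicates 1 and 2. No pair of the 6 arrays was near-identical: the spread (median absolute deviation) of the log2 difference was 0.234 to 0.426 between controls, 0.547 to 0.675 between acetone arrays and 0.402 to 0.860 across the groups. Acetone replicate 1 was closer to each control (0.402 to 0.440) than to acetone replicates 2 and 3 (0.634 and 0.547), so the acetone arrays did not group together. The controls were read on 1 scan day and the acetone arrays on 2 others, so no value within a scan day could be had. Acetone replicate 1 was read on another day than acetone replicates 2 and 3. The number of arrays limits the precision: 3 against 3 cannot go below p = 0.1 in an exact permutation test, so all calls rest on the model of the fit. That model takes 1 spread per probe for the acetone, water control and culture groups. It draws this spread partly from the probe itself and partly from the variance shared across probes. On simulated data for this comparison (883 probes, 200 changed), the fit found 66.3% of the probes given a change of 1 log2 unit, 93.7% at 2 units and 98.2% at 3 units. Each simulated probe had the same spread in all groups, and the share changed was larger than the share called below. These rates may therefore be too high for the real data.

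Worms from acetone soil showed a few large rises and many small falls. Of 883 probes, 55 were called (6.23%), 19 of them higher with acetone (2.15%) and 36 lower (4.08%), and 264 had an unadjusted p under 0.05. The rises were large: 14 of the 19 exceeded 8-fold, and the differences ran from 1.30 to 6.33 log2 units with a median of 4.47. Among the 14, Ealb_Met_P7_C5_SP6_2090632 (3.69) was well above background on 1 of the 3 control arrays and Ealb_Met_P7_G8_T7_2175288 (6.06) on 2. Their differences rest in part on control signals that were not well above background. The falls were small: 2 of the 36 exceeded 4-fold, and the differences ran from −2.38 to −0.72 with a median of −1.25. The median of all tested probes was itself at −0.31 under this scaling, so the median fall was −0.94 relative to the median probe. In whole-body RNA, fewer cells of a type and less RNA per cell cannot be told apart. The balance of directions depended on scaling: with arrays centred on their median 22 probes were called (2.49%), 21 higher and 1 lower, and after quantile normalization 20 were called (2.27%), 17 higher and 3 lower. A core of 15 of the 55 probes, 14 higher and 1 lower, was called under all 3 scalings. The count fell to 1 without acetone replicate 2, to 5 without water control replicate 2, to 10 without water control replicate 3 and to 22 without acetone replicate 1.

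**Figure D1:**
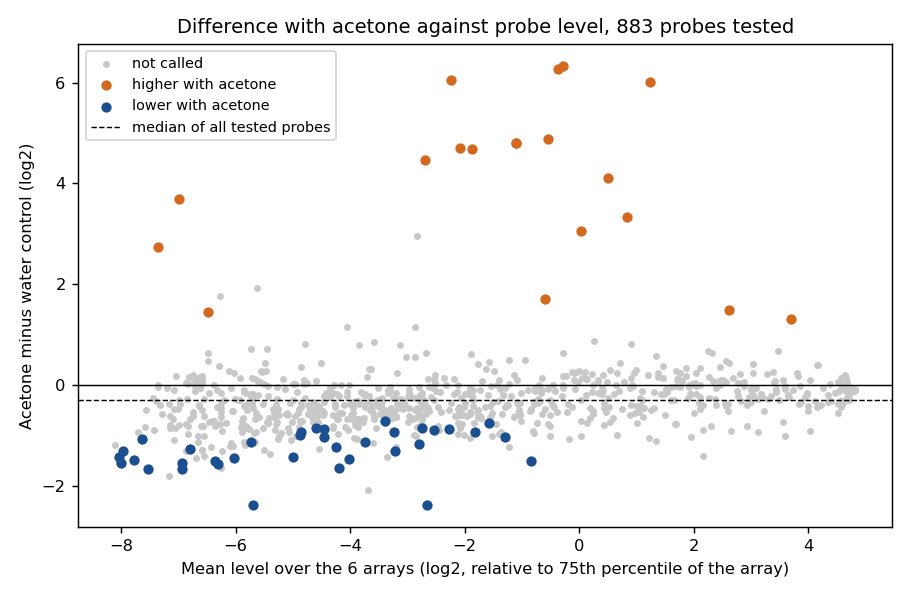
Difference between acetone and water control (vertical axis, log2) against the mean level over the 6 arrays (horizontal axis, log2 relative to the 75th percentile of the array), 1 point per probe for 883 probes. Most of the 19 higher calls, at 1.30 to 6.33, stand away from the other points, though 5 probes that were not called also lie above 1, whereas the 36 lower calls, at −2.38 to −0.72, border the main cloud, whose median (dashed) is at −0.31.

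The largest rises belonged to 4 probes that moved together, led by Contig8. Contig8 was at 2.93, 2.96 and 2.79 with acetone (replicates 1 to 3) and at 0.01, −4.73 and −5.60 in the water controls. The acetone arrays were nearly level, while the controls spread over more than 5 log2 units, with control replicate 1 well above the other two. The difference was 6.33 ± 1.16 (SE, n = 3 each; adjusted p = 0.0194, limma), or 6.65 relative to the median probe. An SE here and below comes from the fit of all 9 arrays, which takes 1 spread per probe for its 3 groups. For Contig8 the SDs were far apart, at 3.02 in the controls, 0.09 with acetone and 0.51 in culture, so this SE does not describe the controls alone. Ealb_Met_P7_C1_SP6_2090602 showed the same order of the controls, at 2.72, 2.75 and 2.82 with acetone and 0.03, −4.73 and −5.85 in the controls, and differed by 6.28 ± 1.19 (SE, n = 3 each; adjusted p = 0.0217, limma). All 4 probes of this set rose, with measured differences of 6.02 to 6.33. The other two are named here after their values were seen. Contig119 was saturated on 1 acetone array, so its level there is a lower limit, and Ealb_Met_P7_G8_T7_2175288 was well above background on 2 of the 3 control arrays. Contig8 missed the threshold without acetone replicate 1 or 2 or water control replicate 2 or 3 (adjusted p up to 0.0910, limma), where it differed by 5.25 to 6.32. Ealb_Met_P7_C1_SP6_2090602 missed it without the same 4 arrays (adjusted p up to 0.101, limma), at differences of 5.12 to 6.30, and also after quantile normalization (6.44; adjusted p = 0.0544, limma). The fit of only the 2 groups and the one with a trended robust prior also lost both, narrowly (adjusted p = 0.0504 and 0.0511 for Contig8, 0.0504 and 0.0540 for Ealb_Met_P7_C1_SP6_2090602, limma). In the authors' own normalized log2 values neither of these probes passed, at 6.41 for Contig8 (adjusted p = 0.0833, limma) and 6.35 for Ealb_Met_P7_C1_SP6_2090602 (adjusted p = 0.0864, limma).

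Sets of calls such as this one were formed after the data were seen, from the 14 samples that took no part in the comparison (3 from culture, 11 from experiment 2). Probes were joined by average linkage at a Pearson r of 0.9, as a description. The samples share an array design and differ in brightness, and 2 near-identical 2-day arrays of experiment 2 were averaged to 1 sample. The 4-day replicates 1 and 2 were extracted with another version of Agilent Feature Extraction (10.7.3.1) than the other arrays (10.5.1.1). The 19 higher calls fell into 1 set of 6 probes, 1 of 4, 2 of 2 and 5 single probes. The 36 lower calls fell into sets of 10, 6 and 3 probes and 17 single probes. Probes of a set may report 1 transcript or a few, which cannot be told apart without their sequences, so the counts of probes above are not counts of genes. The closest pair, Ealb_Pest_P6_H1_SP6_2092020 and Ealb_Pest_P7_C2_SP6_2092135 (named for this reason), differed by a mean of 0.0049 log2 units with an SD of 0.025 over all 20 samples.

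The 6-probe set held the higher call with the smallest p, Ealb_Pest_P9_F6_SP6_2091032. It was at 0.81, 0.01 and 0.61 with acetone and at −2.45, −4.27 and −5.90 in the water controls. Control replicate 1 was again the highest and replicate 3 the lowest, and the groups did not overlap. The difference was 4.68 ± 0.69 (SE, n = 3 each; adjusted p = 0.0186, limma), or 4.99 relative to the median probe. It missed the threshold without acetone replicate 2 (adjusted p = 0.0601, limma), where it differed by 4.92, and in the authors' values (4.70; adjusted p = 0.0550, limma). The 6 probes rose by 4.47 to 4.88, or 22.2-fold to 29.4-fold. Their r with one another over the 14 outside samples was at least 0.972, and the 5 probes with an r of at least 0.9 to Ealb_Pest_P9_F6_SP6_2091032 among all tested were the other 5 of the set, all called higher.

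**Figure D2:**
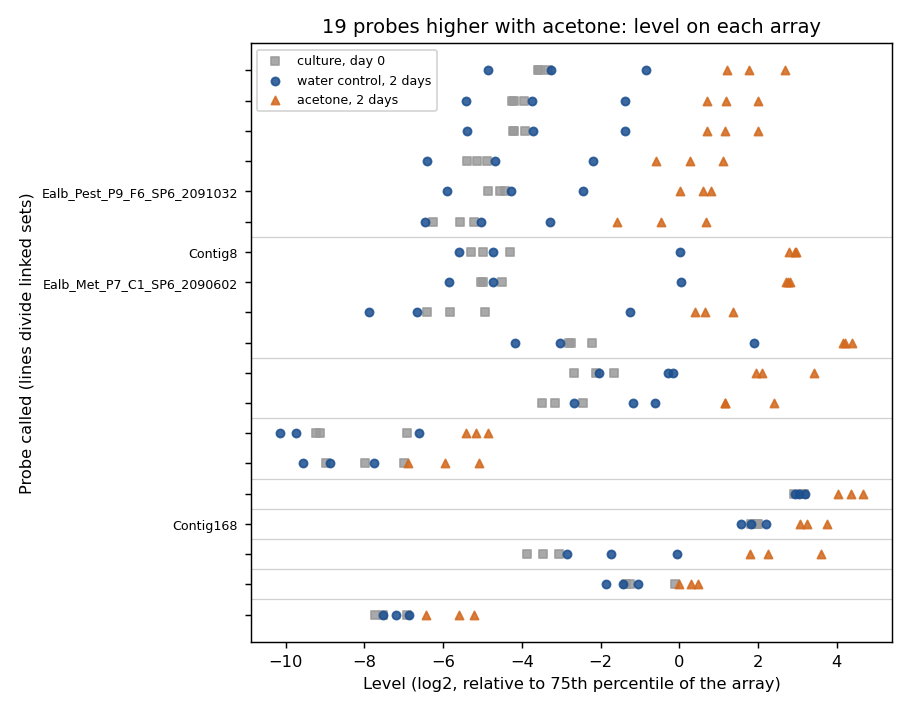
Level of each of the 19 higher calls (rows) on the 9 arrays of experiment 1 (horizontal axis, log2 relative to the 75th percentile of the array), with grey lines between linked sets and names at the probes chosen by the naming rule. In the sets of 6 and 4 probes at the top, 1 water control lies well to the right of the other two, and in each row the 3 acetone arrays lie to the right of the 3 water controls.

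Over all 19 higher calls, control replicate 1 was the highest of the 3 controls for 14 probes and control replicate 3 the lowest for 14. The SD between replicates was smaller with acetone than in the controls for 16 of these 19 probes, with medians of 0.63 and 1.73. Among all 883 tested probes it was the other way round, with a smaller SD in the acetone group for 31.9% of them. Of the other rises, Contig19, singled out after its values were seen, was at 1.78, 3.61 and 2.26 with acetone and at −1.73, −0.07 and −2.85 in the controls. Here control replicate 2 was the highest, and the difference was 4.10 ± 0.67 (SE, n = 3 each; adjusted p = 0.0186, limma). A set of 2 probes, with P1_G2_T7_1328822 as the one with the smaller p, rose by 3.06 and 3.33.

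Contig143 was the only probe of the 1035 that was well above background on all 3 acetone arrays and on no control array, and is named for that. It was at −5.10, −6.90 and −5.95 with acetone, and its measured mean in the controls was −8.73 ± 0.91 (SD, n = 3). Its level was at least 3.47-fold higher with acetone. For this bound, each control array counted at the dimmest signal that was well above background there, or at the signal of Contig143 where that was brighter. The adjusted p of 0.0365 (limma) is not for the bound. It belongs to the measured difference of 2.75, which uses control signals that were not well above background. Contig143 entered the test only through groups where it was bright, since it was not above background on any control array.

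A pair of bright probes rose less but from a steady base. Contig168, the higher call with the next smallest p, was at 3.25, 3.75 and 3.06 with acetone and at 1.58, 2.19 and 1.82 in the controls. The difference of 1.49 ± 0.24 (SE, n = 3 each; adjusted p = 0.0186, limma) is 2.81-fold, or 3.48-fold relative to the median probe. Contig121, singled out after its values were seen, was at 4.35, 4.67 and 4.03 with acetone and at 2.93, 3.18 and 3.04 in the controls. It differed by 1.30 ± 0.21 (SE, n = 3 each; adjusted p = 0.0186, limma), or 2.46-fold. Both groups were tight for these probes, and in neither case did any control come near the lowest acetone array. Contig168 missed the threshold without acetone replicate 2 (adjusted p = 0.0601, limma) or water control replicate 3 (adjusted p = 0.0570, limma). In the authors' values, which gave 4 calls in all, these 2 probes were called, at 1.48 for Contig168 (adjusted p = 0.0437, limma) and 1.36 for Contig121 (adjusted p = 0.00285, limma). The third higher call there, P1_E11_T7_1328882, differed by 0.79 in the authors' values (adjusted p = 0.0170, limma) and by 0.67 in the scanner signals, where it was not called (adjusted p = 0.0674, limma).

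The higher calls were mostly low in culture, and some of them stood high at 8 days in experiment 2, where these worms met no acetone. For all 19, the 3 acetone arrays lay above all 3 culture arrays, and for 14 the mean in culture was below that of the water controls. Contig8 was at −4.99, −4.30 and −5.29 in culture. In control soil of experiment 2 it was at −2.47, −0.50 and −1.13 at 2 days and at −6.17, −6.47, −0.78 and −5.62 at 4 days. At 8 days it was at −1.26, 2.38, 1.44 and 1.24, so 3 of the 4 replicates came within 2 log2 units of the acetone arrays. Ealb_Pest_P9_F6_SP6_2091032 lay between −4.85 and −4.42 in culture, between −5.64 and −2.81 at 2 and 4 days of experiment 2, and at −1.19, −0.40, −1.38 and −0.999 at 8 days. For 8 of the 19 higher calls at least 1 of the 4 replicates at 8 days reached the lowest acetone level, against 1 of 19 among 2-day and 1 of 19 among 4-day samples of that experiment and none in culture. The experiments were run apart, so these levels are given side by side with no test. The calls were picked for high acetone levels, and the shares over all tested probes are not given here.

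For 11 of the 19 higher calls, none of the 17 samples without acetone (water controls, culture and experiment 2) reached the lowest acetone level. The calls were made against the water controls among these samples, and the share over all tested probes is not given here. All of the Contig8 set and most of the 6-probe set are among the 11, so they are not 11 separate profiles. The 11 include Contig8, for which the nearest other sample stood at 2.38 against 2.79. They also include Contig168 and Contig121, for which it stood at 2.47 against 3.06 and at 3.62 against 4.03. The probes differed in how steady they were without acetone: the SD over those 17 samples was 2.96 for Contig8, 1.67 for Ealb_Pest_P9_F6_SP6_2091032, 0.26 for Contig168 and 0.23 for Contig121. The median of this SD was 1.81 over the 19 higher calls and 0.64 over all 883 tested probes. On the 1 scan day shared by acetone replicate 1 and culture replicates 1 and 3, the acetone array was above both culture arrays for all 19 higher calls. These calls were picked for high levels on the acetone arrays, so this count was largely set in advance. It does not part acetone from scan day. Acetone replicates 2 and 3 shared their scan day with 8-day replicates 3 and 4. Acetone replicate 3 shared its slide with 8-day replicate 3. The 8-day replicates 1 and 2 were read on another day. Of these, replicate 2 was the highest of its group for Contig8 and Ealb_Pest_P9_F6_SP6_2091032, and replicate 1 the lowest for Contig8, at −1.26. The part of scan day in these levels was not tested.

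**Figure D3:**
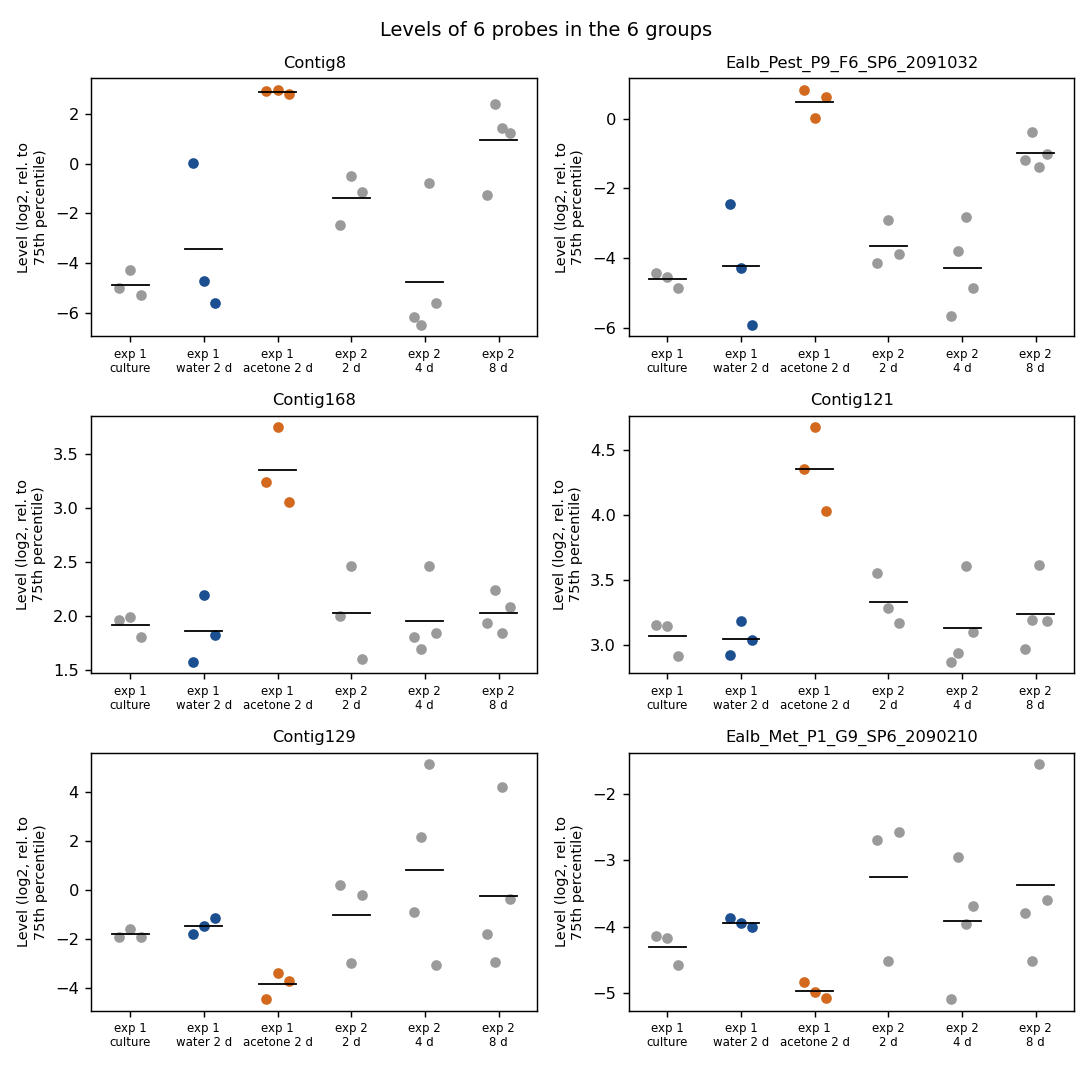
Levels of 6 probes (vertical axes, log2 relative to the 75th percentile of the array) in the 6 groups of the series, 1 point per sample and a line at the group mean, with acetone in orange, water control in blue and the other groups in grey. Contig8 and Ealb_Pest_P9_F6_SP6_2091032 vary widely without acetone and are high again at 8 days, Contig168 and Contig121 are level in all groups but acetone, and Contig129 and Ealb_Met_P1_G9_SP6_2090210 are lower with acetone than in water but spread over a wider range in experiment 2.

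Among the 36 lower calls, Contig129 had the smallest p, although its replicates spread more (SD 0.55 with acetone and 0.31 in the controls) than the median lower call (0.29 and 0.17). It was at −4.45, −3.38 and −3.72 with acetone, at −1.78, −1.46 and −1.15 in the water controls and at −1.90, −1.57 and −1.92 in culture. The acetone arrays lay below all 6 others of the experiment by more than 1 log2 unit. The difference was −2.38 ± 0.29 (SE, n = 3 each; adjusted p = 0.0121, limma), or −2.07 relative to the median probe. It was called under all 3 scalings, without each replicate in turn and in the authors' values (−1.91; adjusted p = 0.0453, limma), but not in the fit with all 6 groups of the series (adjusted p = 0.711, limma). In control soil of experiment 2 it ranged from −3.05 to 5.15, all above the highest acetone array, and its SD over the 17 samples without acetone was 2.38. Contig129 had no probe with an r of at least 0.9 among the tested probes.

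Ealb_Met_P1_G9_SP6_2090210 fell less and led the set of 10 probes. It was at −4.83, −4.99 and −5.08 with acetone and at −3.86, −3.94 and −4.01 in the controls, tight groups about 1 log2 unit apart. The difference of −1.03 ± 0.19 (SE, n = 3 each; adjusted p = 0.0194, limma) became −0.72 relative to the median probe. It passed in 14 of 22 other settings. It missed the threshold with median centring (−0.66; adjusted p = 0.105, limma), in the authors' values (−0.56; adjusted p = 0.117, limma) and with normexp background correction (−0.58; adjusted p = 0.114, limma). At an unchanged difference it missed it in the fit of all groups (adjusted p = 0.700, limma) and with the replicate block (adjusted p = 0.0534, limma). It also missed it without acetone replicate 2, water control replicate 2 or water control replicate 3 (adjusted p up to 0.0881, limma). Over the outside samples, 66 tested probes had an r of at least 0.9 with it, of which 11 were called lower, none higher and 55 not called. The uncalled ones differed by −1.42 to 0.28. Its set of 10 thus belongs to a larger body of probes that vary together in the other samples and that for the most part did not pass here.

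Ealb_Met_P6_G2_SP6_2090523, of the set of 6 lower calls, had the numerically largest fall but unsteady controls. It was at −6.27, −7.26 and −7.14 with acetone and at −5.80, −3.29 and −4.44 in the controls, and its culture arrays were at −5.12, −5.30 and −6.51. The lowest control lay within 0.5 log2 units of the highest acetone array, and the lowest culture array lay below that acetone array. Its difference of −2.38 ± 0.61 (SE, n = 3 each; adjusted p = 0.0498, limma) passed in 8 of 21 other settings, and over all 21 it ranged from −3.03 to −1.03. The fits without acetone replicate 1, 2 or 3 or water control replicate 2 or 3 each lost it (adjusted p up to 0.168, limma), and the fit of all groups lost it furthest (adjusted p = 0.662, limma).

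**Figure D4:**
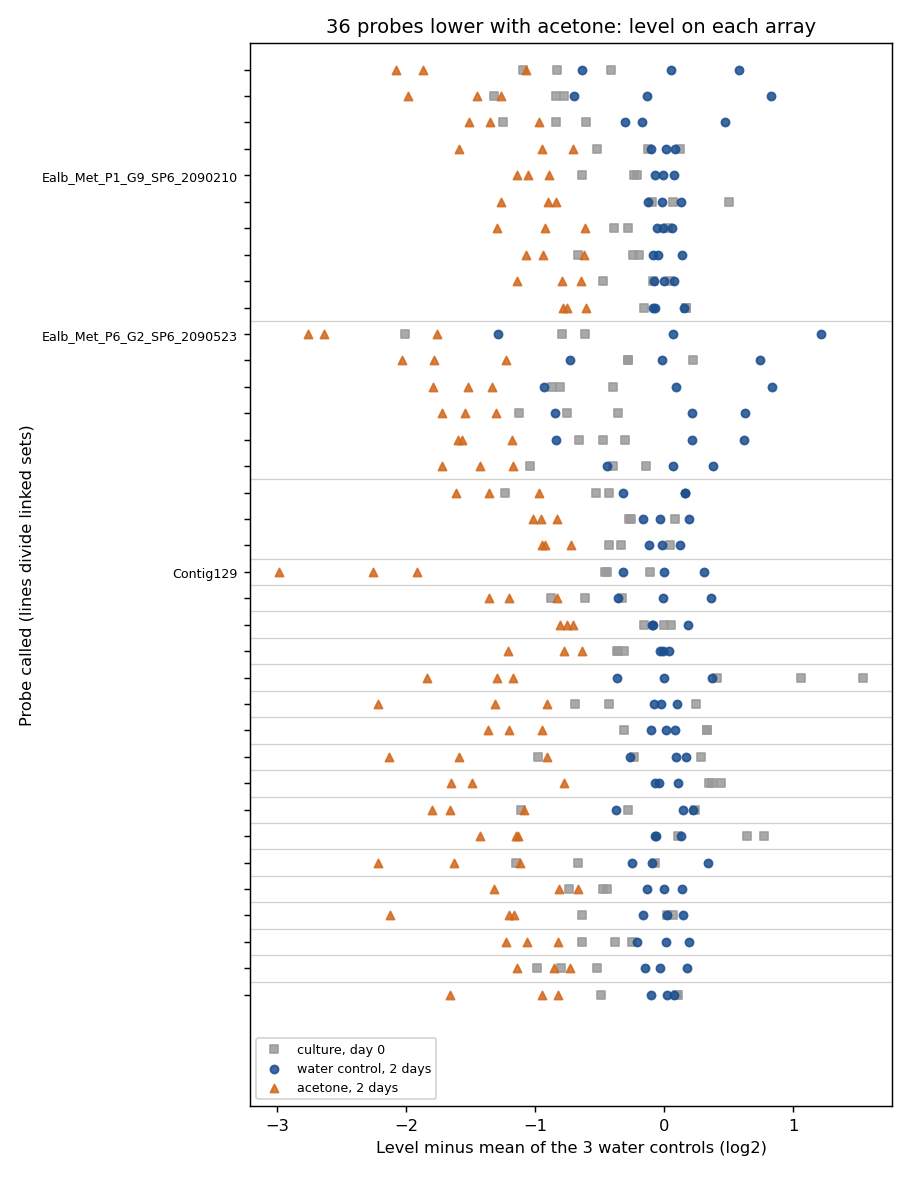
Level of each of the 36 lower calls (rows) on the 9 arrays of experiment 1, minus the mean of the 3 water controls (horizontal axis, log2), with grey lines between linked sets and names at the probes chosen by the naming rule. In each row the acetone arrays lie to the left of the water controls, and in 12 rows at least 1 culture array reaches the acetone arrays.

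Under this scaling, the falls moved with probe brightness. With the 883 probes split into 5 bands of brightness by their mean over the 6 arrays, 34 of the 36 lower calls were in the 3 dimmer bands (14, 10 and 10) and none in the brightest. The median difference was −0.37, −0.50 and −0.42 in the 3 dimmer bands and −0.21 and −0.11 in the 2 brighter ones. Median centring shifts all bands by the same amount, and these medians became −0.01, −0.14, −0.06, 0.15 and 0.26. After quantile normalization they were 0.008, −0.07, −0.12, −0.17 and −0.03, so the dimmest band then had the highest median. The band of a probe rests in part on its acetone arrays, so a change can itself move a probe to another band. A fall moves it toward the dimmer bands and a rise toward the brighter ones. The counts of calls by band, with 3, 0, 4, 10 and 2 higher calls from dim to bright, are therefore only a description. The part of brightness and of scaling in the lower calls was not tested.

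Some probes were no longer well above background with acetone. Of the 1035 probes, 828 were well above background on all 6 arrays. Another 48 were so on all 3 controls but not on all 3 acetone arrays, against 5 in the opposite direction. Of these 48, 7 were above background on no acetone array, and 5 of the 7 were lower calls. For these 5 the level was at least 1.30-fold to 1.60-fold lower with acetone, by the kind of bound used for Contig143. Contig48, Ealb_Met_P9_C2_SP6_2091177, Ealb_Pest_P4_A5_SP6_2091853 and Ealb_Met_P10_E5_SP6_2090813, also lower calls, were above background on 1 of the 3 acetone arrays. Their differences rest in part on acetone signals that were not well above background. None of these lower calls could enter the test through the acetone group. Of all calls, 43 were well above background on all 6 arrays. The filter let 48 probes into the test through the water control group alone and 4 through the acetone group alone. On the acetone arrays fewer probes were above background overall (847 to 881 against 886 to 910), and the part of this in the 48 probes was not tested.

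For the lower calls, culture means lay mostly between those of the other groups. Of the 36 lower calls, 30 had a culture mean between those of acetone and water control and 6 a culture mean above the water control. The acetone arrays lay below all 6 other arrays of experiment 1 for 24 of them. Culture replicate 3 had few probes well above background (599), so for dim calls its level, and with it the culture mean, is uncertain. The part of this in these counts was not tested. On the scan day shared with culture replicates 1 and 3, acetone replicate 1 was below both for 30 of the 36. This count too was largely set by how the calls were picked. In experiment 2, at least 1 sample was as low as the highest acetone array for 19 of the 36 probes at 2 days, 25 at 4 days and 14 at 8 days. Over all 17 samples without acetone, 4 of the 36 lower calls were never as low as with acetone. No share over all tested probes stands beside the counts of this paragraph.

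By the form of the identifiers, 17 of 153 contig probes were called (11.1%), 9 higher and 8 lower. Of 290 tested probes with Met in their name 21 were called (7.24%), 4 higher and 17 lower, and of 165 with Pest 13 were called (7.88%), 5 higher and 8 lower. Of 275 probes named by plate position only, 4 were called (1.45%), 1 higher and 3 lower. Over all probes the share was 6.23%. The median differences of these classes were −0.34, −0.31, −0.14 and −0.36 in the same order, against −0.31 over all tested probes. The classes were chosen after the data were seen and were not tested.

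Most probes, called or not, stood lower with acetone under this scaling. For 330 of the 883 probes (37.4%) no acetone array fell within the range of the controls or the reverse, with 34 of them higher with acetone and 296 lower. Differences above 0 were found for 23.9% of probes. Over 2-fold differences were found for 97 probes, of which 24 were higher.

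The higher calls were met under more settings than the lower ones. Over 22 other ways of scaling, filtering and fitting, a higher call passed in a median of 18 and a lower call in a median of 9. A majority of the settings called 15 of the 19 higher probes and 7 of the 36 lower probes. The fewest settings in which a higher call passed was 7, and for a lower call it was 6. A fit that took scan day as a random block called 243 probes, 29 higher and 214 lower. The correlation fitted for arrays of 1 day was −0.21, and with a value below 0 the standard error between days is made smaller. Acetone and scan day cannot be told apart in this comparison, since no day held both groups.

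**Figure D5:**
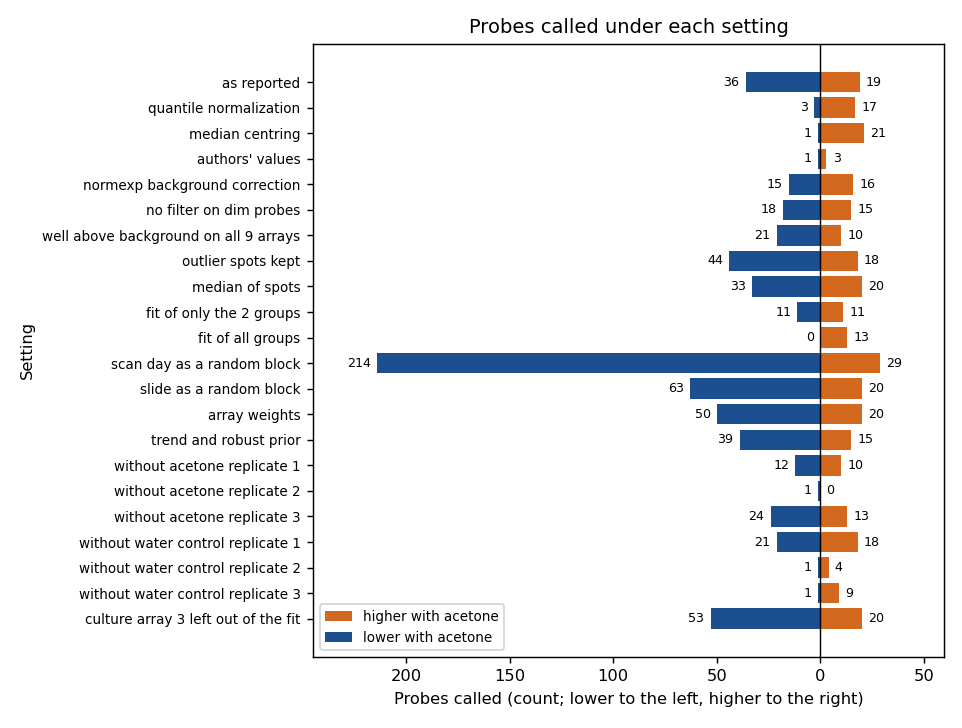
Number of probes called (horizontal axis, counts) under the reported setting and the other settings, with probes higher with acetone to the right and probes lower to the left. Between 9 and 29 probes are called higher in all settings but 3 (the authors' values and the fits without acetone replicate 2 or water control replicate 2), whereas the lower calls range from none to 214.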

How the data were processed

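RNA from whole worms (0.5 µg per array) was labelled with Cy3 and hybridised to custom Agilent arrays, 1 sample per array. Spot intensities were extracted by Agilent Feature Extraction 10.5.1.1 for the 9 arrays of experiment 1, per the file headers, background-subtracted and detrended within each array but not scaled between arrays. The deposited files also hold median spot and background intensities and flags per spot. A further table holds the authors' log2 values, with a normalization that the sources used here do not state. Its columns correlated with the scanner signals at 0.980 to 0.999 in experiment 1, and their medians were 7.92 to 7.98.

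From the 15208 worm spots of an array, outlier spots were left out, log2 of the processed signal was averaged over the 14 or 15 spots of each probe, and the array's 75th percentile was subtracted. A probe was well above background on an array when at least 0.5 of its spots were, and was tested when this held on every array of at least 1 of the 3 groups of experiment 1. The 9 arrays shared 1 fit without covariates (limma 3.58.1, R 4.3.3, eBayes, two-sided, Benjamini-Hochberg over the probes tested). The fit was tested on simulated data, where 4.07% of calls were false. Simulated probes were independent, which the real ones are not. Each had the same spread in all groups, which some real ones, such as Contig8, did not. Alternatives were other scalings, background correction, filters, spot summaries, samples in the fit, blocks and priors. Named probes are the 2 higher and 2 lower calls with the largest difference, and the 2 with the smallest p in each direction among calls that also passed under quantile normalization or median centring; others are said to be chosen after their values were seen. Lists of gene words could not be applied, since no table pairs probes with genes. Groups, rules and alternatives were chosen with earlier results of these data known.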

Additional observations from a re-analysis of the deposited data

Results flagged for a closer look

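Single samples lying far from the rest of their group were looked for in groups of 4, for the 7 named probes at 4 and 8 days of experiment 2 (14 groups). Contig8 at 4 days was at −0.78 in replicate 3, while the other 3 samples lay between −6.47 and −5.62. Ealb_Met_P7_C1_SP6_2090602 was at −0.25 in the same sample, against −6.78 to −5.71 in the others. Both values passed Dixon's 95% limit for 4 samples, at 0.850 and 0.836 of the range. Chance alone marks about 1 in 20 groups, and these 2 probes move together, so the marks are not separate observations. Replicates 1 and 2 were read on other scan days and extracted with another version of Feature Extraction (10.7.3.1). Replicate 4, on the same slide and scan day as replicate 3, had Contig8 at −5.62. No acetone was used there, and the cause was not tested. The acetone and water control groups have 3 samples each and were not searched in this way.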

How the results depend on the processing

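Against 55 probes called as reported, the counts were 20 after quantile normalization, 22 with median centring, 4 in the authors' values, 31 with normexp background correction, 33 without a filter on dim probes, 31 with probes above background on all 9 arrays (595 tested), 22 in the fit of only the 2 groups, 13 in the fit of all groups, 243 with scan day and 83 with slide as a random block. Of these, 17, 19, 3, 30, 31, 30, 21, 13, 55 and 55 probes were among the 55. For the fitted slide correlation, also negative (−0.25), the same caution holds as for scan day. Without each replicate in turn, the count ranged from 1 to 39. With outlier spots kept (62), the median of spots (53), array weights (70), a trended robust prior (54) and, added after seeing the data, culture array 3 left out (73), the count stayed within 1.5 times. Higher calls made up 34.5% as reported, 85% after quantile normalization, 95.5% with median centring and 51.6% with normexp; the median probe was at −0.06, 0.05 and −0.16 there and at −0.05 in the authors' values. None of the 7 named probes changed direction in any setting. The replicate block gave 15 calls, 14 higher and 1 lower, and acetone and control samples of the same number share only that number: their deviations correlated at 0.07, 0.20 and 0.24, each sample best with its own number, a hint from the data and not from the design. The cause of these differences was not tested. For dim probes, signal over background limits what can be seen, and 152 of 1035 probes were not tested.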
